A study of Mus musculus with 9 samples.

Results

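Ly6c1, Ly6c2, S100a8, S100a9, Mpo, Elane, Lyz1 and Lyz2 were examined in RNA-seq libraries of mouse macrophage lines. These genes encode a surface marker, cytosolic proteins and granule enzymes that are used to recognise monocytes, neutrophils and their precursors. They were chosen by name, and 8 of 8 symbols were found among the 24411 genes of the deposited table. The 9 libraries came from 3 yolk sac lines (YS lines), 3 fetal liver lines (FL lines) and 3 bone marrow lines (BM lines). Total cells of C57BL/6 mice had been taken from yolk sac on embryonic day 9.5, from fetal liver at E14.5, or from adult bone marrow. All lines were grown without genetic modification in RPMI1640 with fetal calf serum and recombinant human M-CSF at 100 ng/mL, with repeated detachment and reseeding over a long period. A line was the bulk culture of a separate dish or well, started from cells pooled from 2 or more mice, so p-values measure the spread between cultures and not between animals.

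Monocytes and neutrophils arise from a common myeloid precursor. Precursors of the neutrophil series load azurophil granules with myeloperoxidase, encoded by Mpo, and with serine proteases such as neutrophil elastase, encoded by Elane. S100A8 and S100A9 form calprotectin, an abundant calcium-binding complex of neutrophils and monocytes. Ly6C, a GPI-anchored surface protein encoded by the near-identical genes Ly6c1 and Ly6c2, marks classical monocytes and is lost as they become macrophages. Lysozyme M, encoded by Lyz2, cleaves bacterial cell walls and is made by monocytes, macrophages and neutrophils alike, whereas lysozyme P, encoded by Lyz1, is best known from Paneth cells of the intestine.

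The lysozyme genes and the Ly6c genes are close copies, which matters for any count of 75 nt reads. In GENCODE M21 (GRCm38), the coding sequences of Lyz1 and Lyz2 had 444 bases each without the stop codon and differed at 22 positions, an identity of 95.0%. The second of 4 coding exons, of 165 bases, is shown for both genes. It lies at chr10:117291029-117291193 for Lyz1 and at chr10:117280641-117280805 for Lyz2, both on the minus strand, and capitals mark the 6 positions that differ. Every stretch of 75 bases within the exon holds such a position, so none of the shared stretches counted below lies wholly within it.
Lyz1 coding exon 2: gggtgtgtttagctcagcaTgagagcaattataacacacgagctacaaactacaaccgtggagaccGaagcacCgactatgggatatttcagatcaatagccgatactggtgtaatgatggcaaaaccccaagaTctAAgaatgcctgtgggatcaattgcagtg
Lyz2 coding exon 2: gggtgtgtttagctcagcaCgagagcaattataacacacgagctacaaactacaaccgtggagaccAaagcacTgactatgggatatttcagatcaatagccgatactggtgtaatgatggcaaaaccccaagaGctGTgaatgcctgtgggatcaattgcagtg

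Ly6c1 and Ly6c2 had 393 coding bases each and differed at 9 of them, an identity of 97.7%. Their last coding exon of 206 bases differs at only 3 positions, again in capitals. It lies at chr15:75045405-75045610 for Ly6c1 and chr15:75108546-75108751 for Ly6c2 on the minus strand. Here too, every stretch of 75 bases within the exon holds a position that differs.
Ly6c1 coding exon 3: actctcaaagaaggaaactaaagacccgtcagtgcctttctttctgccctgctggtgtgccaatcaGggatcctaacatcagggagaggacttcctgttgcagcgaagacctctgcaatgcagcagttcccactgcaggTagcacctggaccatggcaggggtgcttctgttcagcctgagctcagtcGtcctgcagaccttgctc
Ly6c2 coding exon 3: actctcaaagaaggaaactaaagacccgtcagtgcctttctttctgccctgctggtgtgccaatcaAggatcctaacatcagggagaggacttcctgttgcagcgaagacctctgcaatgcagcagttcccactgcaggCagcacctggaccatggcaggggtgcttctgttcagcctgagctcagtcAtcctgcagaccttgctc

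Every stretch of 75 bases of the main transcript of each gene was looked up among all GENCODE M21 transcripts. For Lyz1, 74 of 1189 stretches (6.22%) also occurred in Lyz2, and for Lyz2, 74 of 1242 (5.96%) also occurred in Lyz1. For Ly6c1, 179 of 770 stretches (23.2%) were shared, 164 of them with Ly6c2 and 15 with Ly6a. For Ly6c2, 164 of 748 (21.9%) were shared with Ly6c1. The transcripts of S100a8, S100a9, Mpo and Elane shared 0 stretches with another gene. The values of single Lyz and Ly6c genes are therefore given together with the sum of each pair, which depends little on how reads were divided between the copies.

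The sequence before the transcription start was also alike for the lysozyme genes. Over the 150 bases upstream (RefSeq, GRCm38.p6), Lyz1 at chr10:117292869-117293018 and Lyz2 at chr10:117282273-117282422, on the minus strand, differed at 21 positions when laid side by side without gaps, shown in capitals.
Lyz1 upstream: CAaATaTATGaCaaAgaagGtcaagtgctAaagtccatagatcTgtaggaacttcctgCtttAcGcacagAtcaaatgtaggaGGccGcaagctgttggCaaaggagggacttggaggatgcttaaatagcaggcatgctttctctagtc
Lyz2 upstream: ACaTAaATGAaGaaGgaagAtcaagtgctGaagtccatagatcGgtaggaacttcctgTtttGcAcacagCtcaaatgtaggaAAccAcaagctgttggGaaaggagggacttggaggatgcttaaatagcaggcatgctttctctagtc
In the 250 bases upstream of the members' starts, the hexamer GAGGAA, a core bound by PU.1, was present in either orientation for 5 of 8 members (S100a8, Elane, Mpo, Ly6c1 and Ly6c2), and 23.3% of 32851 RefSeq upstream sequences of that length held it. TTGCNNAA, a core bound by C/EBP factors, was present in either orientation for S100a9 and Lyz1 and in 9.56% of all. TATAAA was present in either orientation for S100a8 and Ly6c1 and in 12.4% of all. Ly6c1 and Ly6c2 had more than a single upstream sequence each, and a gene was counted if any of them held the motif. The percentages of all are per sequence. TATAAA was absent from the Ly6c1 sequence at chr15:75048664-75048913. None of these motifs is contained in another, and a match was taken as a description of the letters only.

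The levels below are TPM, transcript abundances that are corrected for transcript length and scaled to the same sum in each library. They carry no read depth, so no counting error can be given, and a gene at 0 is described as listed at 0. Of 24411 genes, 7412 were listed at 0 in all libraries. None of 14 widely used genes fell below 23.8 TPM, but of 73 ribosomal protein genes Rpl26 was listed at 0 in 6 of 9 libraries, so a listed 0 may be a failed estimate and does not show that a transcript was absent. The lines expressed macrophage genes, but of 8 macrophage markers Cd163 was at most 0.06 TPM in any library. Csf1r, the M-CSF receptor, was between 1086 and 2441 TPM, Cd68 between 1018 and 3448 TPM, Adgre1, which encodes F4/80, between 132 and 539 TPM, and Itgam, which encodes CD11b, between 196 and 394 TPM. Markers of fibroblasts and of lymphocytes summed to at most 1.17 and 1.42 TPM in any library. Some libraries stood apart from their group. YS line 1 had the highest Csf3r, FL line 2 had Lgals3 at 2.76 TPM against 841 TPM or more elsewhere, and BM line 2 had Hba-a1 at 215 TPM and Hba-a2 at 102 TPM against at most 14.2 TPM elsewhere. In bulk RNA, fewer cells that express a gene and less of its RNA per cell cannot be told apart.

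The members fell into 3 classes of level. Lyz2 and Lyz1 were expressed in every line, S100a8 was low to moderate and differed between all groups, and S100a9, Elane, Mpo, Ly6c1 and Ly6c2 were listed at or near 0 in most lines. Only 3 of the 8 members, S100a8, Lyz1 and Lyz2, reached 1 TPM in at least 3 libraries, which was required for the test across genes.

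**Figure D1:**
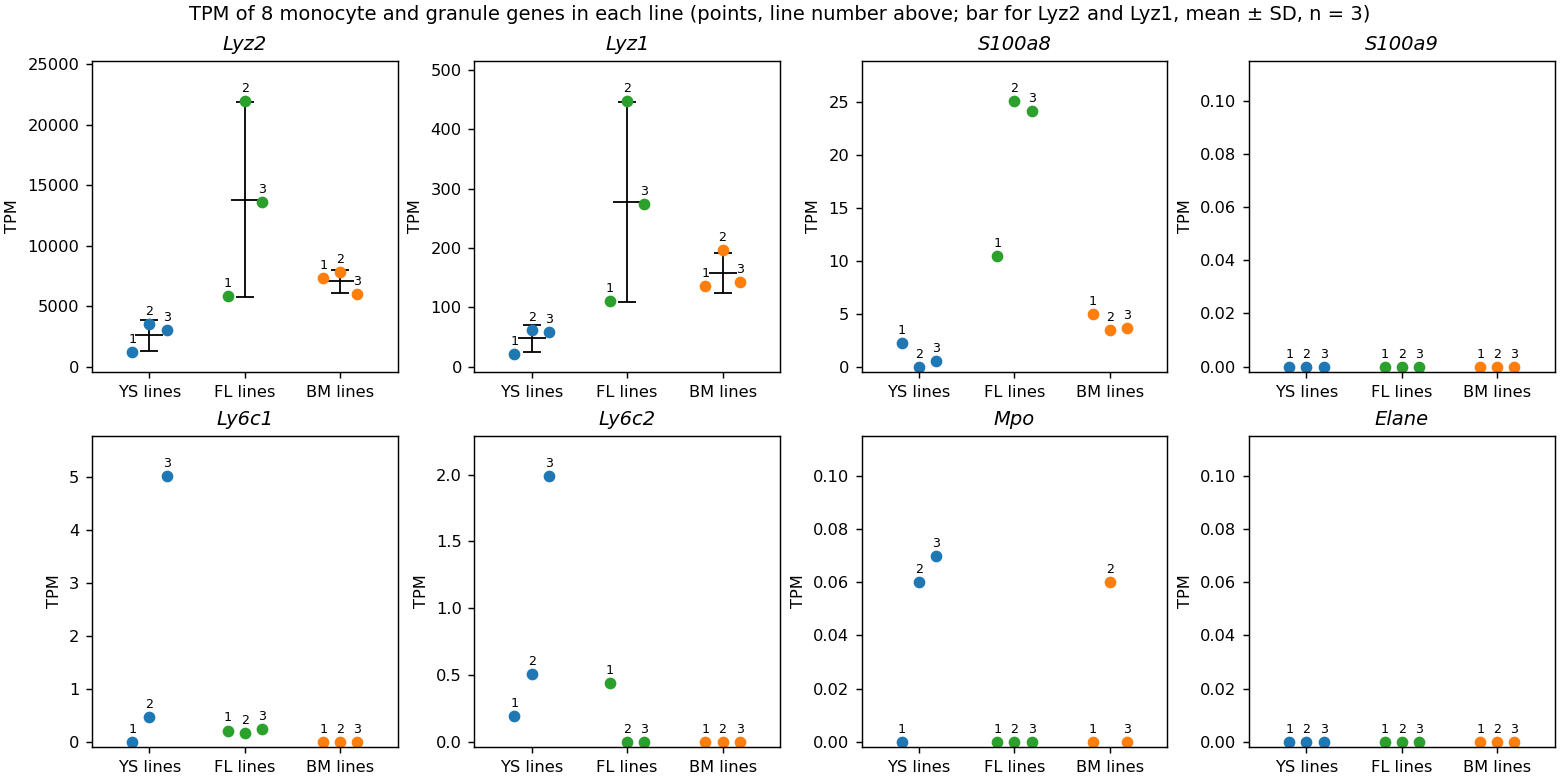
TPM (vertical axis, a separate linear scale for each gene) of the 8 members in the YS, FL and BM lines. Points are single lines with their number above, and the bar for Lyz2 and Lyz1 gives the mean ± SD of 3 lines. Lyz2 and Lyz1 are lowest in the YS lines, S100a8 is highest in the FL lines, and S100a9 and Elane are listed at 0 in 9 of 9 lines.

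Lyz2 was among the most abundant transcripts of these macrophages. It was at 1163, 3531 and 3031 TPM across YS lines 1 to 3, at 5806, 21976 and 13618 TPM across FL lines 1 to 3, and at 7361, 7841 and 5986 TPM across BM lines 1 to 3. The lowest BM line and the lowest FL line both lay above the highest YS line, whereas the FL and BM lines overlapped. By rank it was transcript 109 in YS line 1, between 2 and 20 in the other lines, and made up 0.116% of the TPM of YS line 1 and 2.20% of that of FL line 2. The FL lines varied most, from 5806 to 21976 TPM, and FL line 2 held the highest level of both lysozymes.

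Lyz1 followed Lyz2 at a much lower level. It was at 21.8, 61.9 and 58.1 TPM across YS lines, 111, 448 and 274 TPM across FL lines and 136, 196 and 142 TPM across BM lines. As for Lyz2, YS line 1 was lowest, FL line 2 was highest, and the YS lines did not overlap with either other group. Lyz1 made up 1.82% ± 0.08 of the sum of both lysozymes in YS lines (SD, n = 3), 1.95% ± 0.07 in FL lines and 2.19% ± 0.33 in BM lines. These shares did not differ beyond the spread between lines, with p = 0.3 for YS against BM, 0.4 for FL against BM and 0.2 for YS against FL in exact two-sided permutation tests, whose smallest possible p is 0.1 with 3 lines against 3. Across single lines the share ran from 1.72% in YS line 2 to 2.44% in BM line 2. How far shared reads set this share was not tested.

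**Figure D2:**
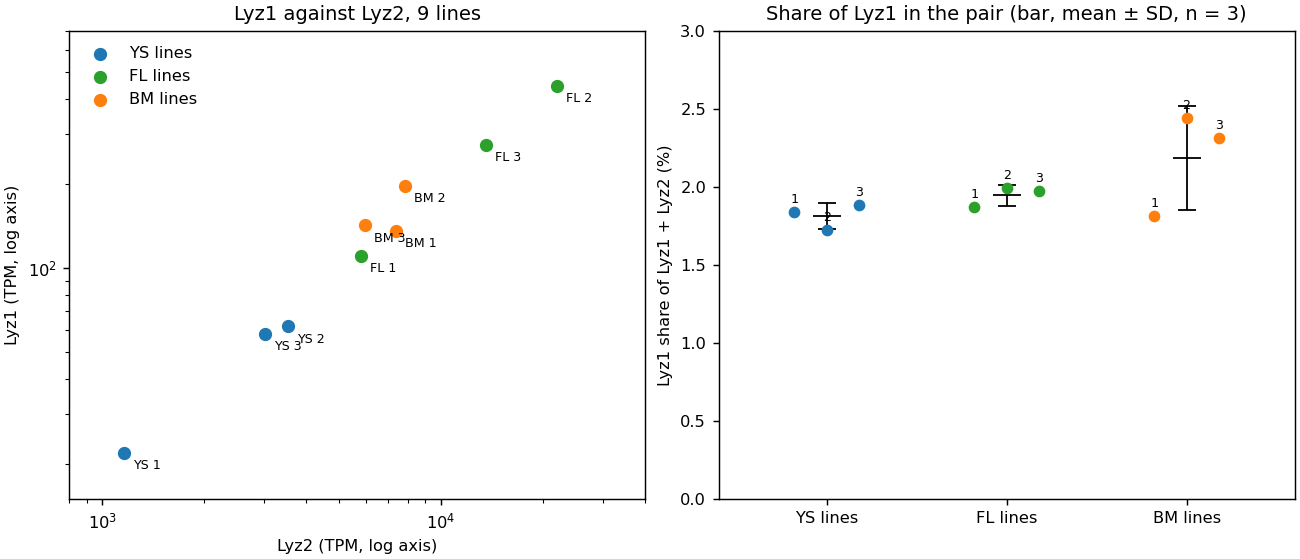
Left, Lyz1 against Lyz2 in each line, both in TPM on log axes. Right, the share of Lyz1 in the sum of Lyz1 and Lyz2 (%) by group, with points for lines and bars for mean ± SD (n = 3). The levels rise together from YS line 1 to FL line 2, and the share stays between 1.72% and 2.44%.

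Differences were tested with limma on log2(TPM + 1) over 11753 genes, and a gene was called at a Benjamini-Hochberg adjusted p under 0.1 and a change over 2-fold. Between YS and BM lines, 1504 genes (12.8%) were called, with 7.57% of those tested higher and 5.22% of them lower in YS lines, and 3 of the 3 members tested were lower. Between FL and BM lines, 10.3% of tested genes were called, 6.01% higher and 4.3% lower in FL lines, and 1 of the 3 members, S100a8, was higher. Between YS and FL lines, 3.79% were called, with 1.95% of those tested higher and 1.85% of them lower in YS lines, and 3 of the 3 members were lower. Lyz1 and Lyz2 share sequence and are not independent counts, and the comparisons with BM lines share the BM libraries. All 9 libraries gave one estimate of the spread, so leaving out a line of any group can change a call. The median change of all tested genes was 0.11 for YS against BM, 0.09 for FL against BM and 0.02 for YS against FL on the log2 scale.

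On that scale Lyz2 differed by -1.60 (SE 0.53) between YS and BM lines, with a limma adjusted p of 0.0538, and Lyz1 changed by -1.83 (SE 0.53, adjusted p = 0.0344). Against FL lines the YS lines differed by -2.37 for Lyz2 (adjusted p = 0.0475) and by -2.45 for Lyz1 (adjusted p = 0.0449). FL and BM lines did not differ beyond their spread, with 0.78 for Lyz2 (SE 0.53, adjusted p = 0.344) and 0.61 for Lyz1 (SE 0.53, adjusted p = 0.464). The sum of the pair, at 2623 ± 1270 TPM in YS, 14078 ± 8255 TPM in FL and 7221 ± 984 TPM across BM lines (SD, n = 3), gave -1.60 for YS against BM (limma adjusted p = 0.0532), 0.77 for FL against BM (0.347) and -2.38 for YS against FL (0.0475). The lysozyme calls were not firm. The Lyz2 call between YS and BM lines was lost without YS line 1 (-1.10, adjusted p = 0.126), BM line 1 (0.139), BM line 2 (0.129) or BM line 3 (0.110), and both calls between YS and FL lines were lost without FL line 2 (-2.00 for Lyz1, adjusted p = 0.122; -1.94 for Lyz2, 0.130) or FL line 3 (0.137 and 0.141).

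S100a8 differed between all 3 groups. It was at 2.19, 0 and 0.54 TPM across YS lines 1 to 3, 10.5, 25.1 and 24.2 TPM across FL lines and 5.00, 3.43 and 3.66 TPM across BM lines. The order FL above BM above YS held for every line, without overlap between groups. On the log2(TPM + 1) scale, which understates changes at such low levels, S100a8 differed by 1.98 between FL and BM lines (SE 0.45, limma adjusted p = 0.0176), by -1.55 between YS and BM lines (adjusted p = 0.0356) and by -3.53 between YS and FL lines (adjusted p = 0.00997). The call between YS and BM lines was lost without BM line 1 (-1.42, adjusted p = 0.117), and the other calls held without any single line. Without YS line 2, where S100a8 was listed at 0, the differences were -1.17 from BM lines (limma adjusted p = 0.0891) and -3.15 from FL lines (0.0185).

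S100a9, which encodes the partner of S100A8 in calprotectin, was listed at 0 in 9 of 9 lines. S100a8 was above 0 in the 6 FL and BM lines where its partner was listed at 0, and neither transcript shared a stretch of 75 bases with another gene. The exact permutation test gave p = 0.1, the smallest possible, for S100a8 in each comparison.

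**Figure D3:**
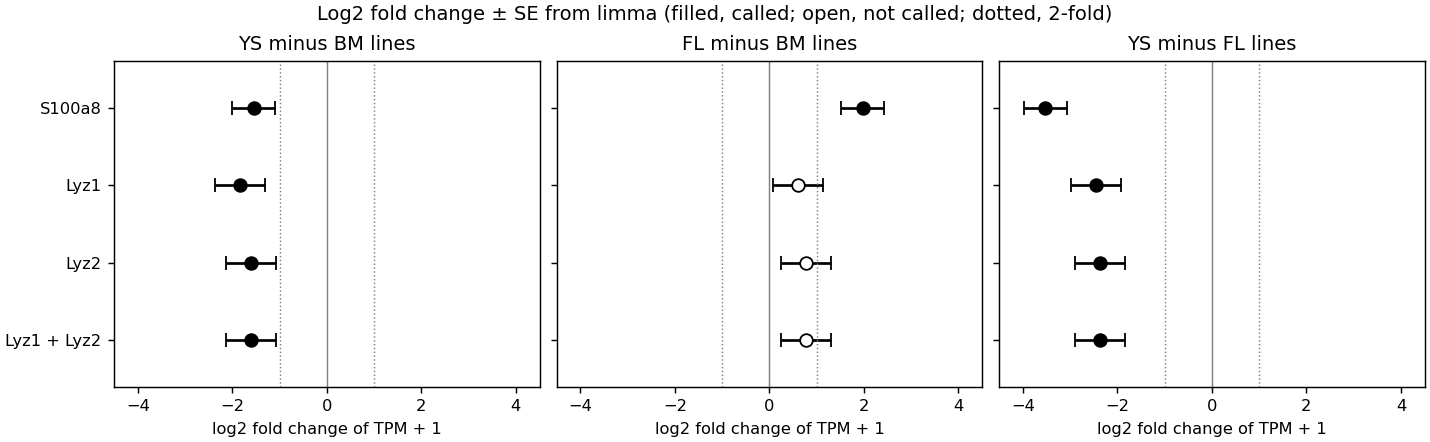
Log2 fold change of TPM + 1 (horizontal axis) with its SE from limma for the 3 tested members and for the sum of the lysozyme pair, one panel for each comparison. Filled points passed the thresholds, open points did not, and dotted lines mark 2-fold. S100a8 is to the right of 0 for FL against BM (1.98) and to the left in both comparisons of YS lines, and the lysozymes are to the left only where YS lines are compared.

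Both azurophil enzymes were listed at or near 0. Elane was listed at 0 in 9 of 9 lines. Mpo was listed at 0 in 6 of 9 lines and reached 0.06 and 0.07 TPM across YS lines 2 and 3 and 0.06 TPM for BM line 2, with p = 0.7 for YS against BM, 1 for FL against BM and 0.4 for YS against FL in exact permutation tests. No fold was computed for these genes.

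Ly6c1 and Ly6c2 were listed at 0 in the BM lines and were low in the others, at trace level except in YS line 3. Ly6c1 was at 0, 0.47 and 5.02 TPM across YS lines 1 to 3, 0.21, 0.17 and 0.23 TPM across FL lines, and listed at 0 in 3 of 3 BM lines. Ly6c2 was at 0.19, 0.51 and 1.99 TPM across YS lines, at 0.44 TPM for FL line 1 and listed at 0 in the other FL lines and in the BM lines. The pair summed to 0.19, 0.98 and 7.01 TPM across YS lines and to 0.65, 0.17 and 0.23 TPM across FL lines, so YS line 3 held most of the signal. The pair sum did not overlap between YS and BM lines or between FL and BM lines (exact p = 0.1 for each, the smallest possible, with BM lines listed at 0), and overlapped between YS and FL lines (exact p = 0.3). YS line 3 also had the highest Ly6a, at 3877 TPM, a gene that shares 15 stretches with Ly6c1. The part of Ly6a reads in the Ly6c1 value was not tested.

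The other genes of azurophil granules were given by a list of 9, of which 4 were tested. Compared with BM lines, 2 were called higher in YS lines and 1 in FL lines, 2 were called higher in YS than in FL lines, and 0 were called lower. Of all tested genes, 7.57% were called higher in YS and 6.01% in FL than in BM lines, and 1.95% higher in YS than in FL lines. These shares apply to each list below, and the lists were chosen with earlier results of these data known. Srgn encodes serglycin, the proteoglycan that packs granule proteases. It was at 54.7, 11.2 and 8.96 TPM across YS lines and at most 0.37 TPM in the FL and BM lines. YS lines differed by 4.10 from BM lines (SE 0.56, limma adjusted p = 0.00275) and by 3.88 from FL lines (adjusted p = 0.0157). Srgn passed the filter on low values only through the YS lines, where it is high, so these adjusted p-values are no independent support. Cst7, which encodes cystatin F, an inhibitor of cathepsins, was at 63.4, 27.3 and 77.5 TPM in YS, 17.9, 4.52 and 5.36 TPM in FL and 0.79, 2.24 and 1.75 TPM across BM lines. It was higher by 4.38 in YS than in BM lines (adjusted p = 0.00183), by 2.58 in YS than in FL lines (0.0399) and by 1.79 in FL than in BM lines (0.0468). The call between YS and FL lines was lost without FL line 2 (2.25, adjusted p = 0.121) or FL line 3 (2.35, 0.129), and the call between FL and BM lines without FL line 1 (1.24, 0.111), BM line 1 (1.55, 0.158) or BM line 3 (1.86, 0.115). The serine protease genes of the list were low: Prtn3, proteinase 3, was at 1.24, 0.33 and 0.19 TPM across YS lines and at most 0.35 TPM elsewhere, and Ctsg, cathepsin G, was listed at 0 in every library. Gusb and Cd63, which belong to lysosomes as well, were at 527 TPM or more in all libraries and did not pass the test. The median change of the 4 tested genes, Srgn among them, was 2.01 for YS against BM, 0.17 for FL against BM and 1.45 for YS against FL. For all tested genes it was 0.11, 0.09 and 0.02.

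Genes of the later granules and of neutrophils were mostly listed at or near 0. Of 11 genes of specific and gelatinase granules, 8 stayed under 1 TPM in every library and 1 was tested, with 0 called in any comparison. Lcn2, lipocalin 2, reached 5.52 TPM for YS line 3 and Mmp9, gelatinase B, 9.61 TPM for BM line 3, and Hp, haptoglobin, was at most 1.21 TPM. Ngp and Chil3 were listed at 0 throughout and Ltf and Camp stayed at or under 0.49 TPM. None of the 9 neutrophil markers in the table was tested. The exception was Csf3r, the G-CSF receptor, at 18.5 TPM for YS line 1 and 6.42 TPM for YS line 2 against at most 0.60 TPM in the other lines, including YS line 3, and the next highest, Stfa3, reached 1.02 TPM for YS line 3 alone. Ly6g was not analysed here.

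Of 10 classical monocyte markers, 5 were tested and 2 were called higher in YS than in BM lines, and 1 higher in FL than in BM lines. Fcgr1, the high-affinity IgG receptor CD64, was at 122, 330 and 286 TPM across YS lines, 166, 110 and 172 TPM across FL lines and 5.47, 42.1 and 1.68 TPM across BM lines. It was higher than in BM lines by 4.65 in YS (SE 0.87, limma adjusted p = 0.00761) and 4.02 in FL lines (adjusted p = 0.0142). Ccr2, the receptor that brings monocytes out of the bone marrow, was higher by 1.38 in YS than in BM lines (adjusted p = 0.0679), a low-level difference (5.94, 0.80 and 1.19 TPM against at most 0.28 TPM) whose call was lost without any one BM line (adjusted p = 0.158, 0.125 and 0.177 without BM lines 1, 2 and 3). It reached 1 TPM only in YS lines 1 and 3 and FL line 1, and without any one of these lines it was not tested. Plac8 and F13a1 exceeded 1 TPM only in YS line 1, at 1.79 and 3.32 TPM.

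Non-classical monocyte markers were tested for 9 of 10 genes, and 6 were called higher in YS than in BM lines, 4 higher and 1 lower in FL than in BM lines, and 1 higher in YS than in FL lines. The median change was 1.71, 1.33 and 0.32, against 0.11, 0.09 and 0.02 for all tested genes. Of all tested genes, 7.57% were called higher in YS and 6.01% in FL than in BM lines. Cx3cr1 (1.94 between YS and BM lines, limma adjusted p = 0.122) and Fcgr4 were not called in any comparison, and Ace was listed at 0 throughout. Treml4 was higher by 1.71 in YS (limma adjusted p = 0.0068) and by 2.66 in FL lines (0.00125) than in BM lines. Pou2f2, a POU transcription factor, was higher by 1.54 (0.00178) and 1.33 (0.00231). Eno3 was higher by 2.38 in YS lines (0.0103), and Itgal, the LFA-1 integrin chain, by 1.45 in FL lines (0.00982). Cd300e had the largest changes, 4.15 in YS and 4.60 in FL lines, with a wide spread, from 1.34 to 488 TPM within the YS lines, and the calls were lost without YS line 2 or without any one FL or BM line, with the highest adjusted p without BM line 1 (0.242 and 0.241), and the YS call also without YS line 3 (0.232). Spn, the sialophorin CD43, was higher by 2.74 in YS lines (0.0634), a call lost without YS line 1 or 3 or BM line 2 or 3 (0.142 to 0.188). Nr4a1, the nuclear receptor needed for these monocytes, differed by -1.12 between FL and BM lines (0.0544), a call lost without FL line 1 or 2 or BM line 2 or 3 (adjusted p = 0.131 to 0.159), and was higher by 2.14 in YS than in FL lines (0.0214).

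**Figure D4:**
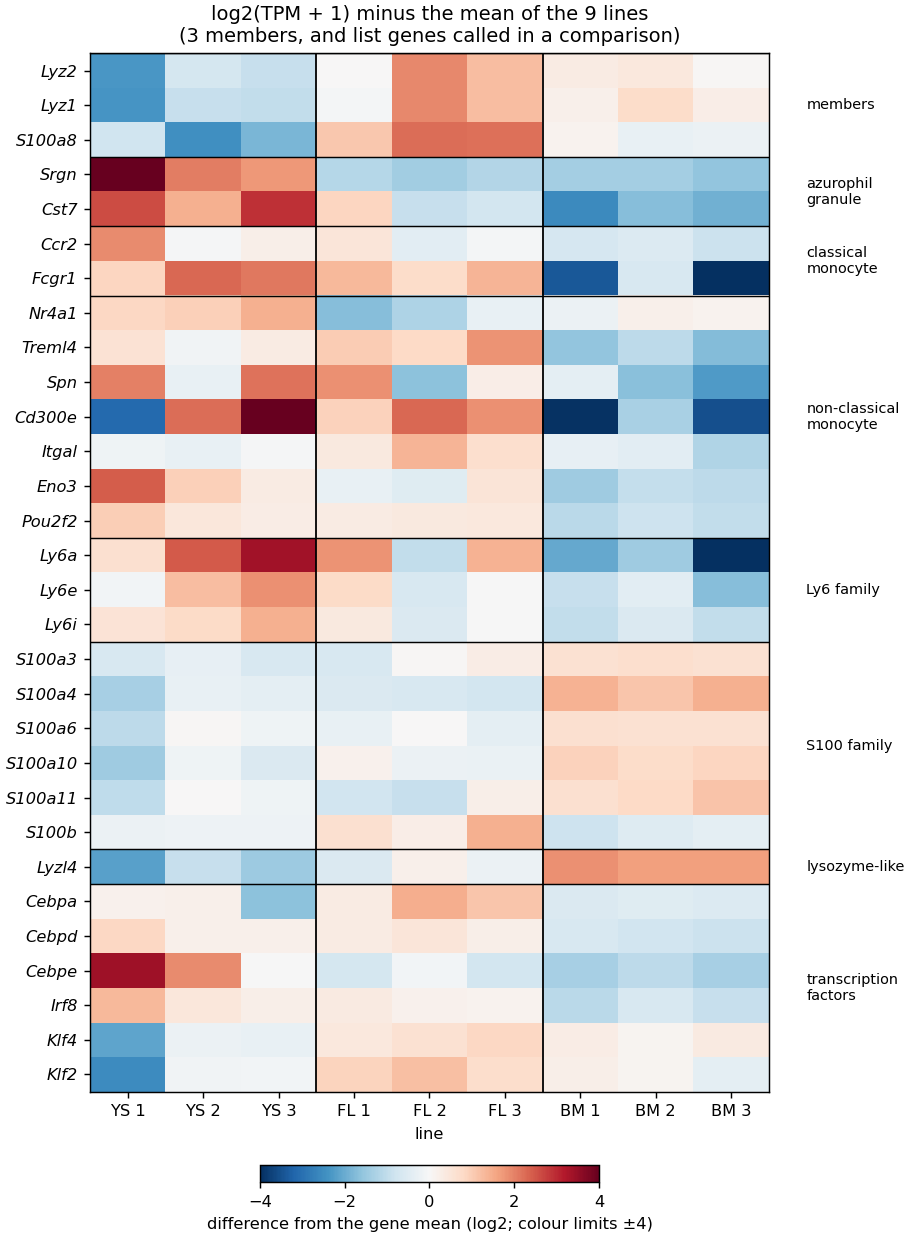
Difference of log2(TPM + 1) from the mean of the 9 lines (colour, limits ±4) for the 3 tested members and for the called genes of the granule, monocyte, family and transcription factor lists (rows) in each line (columns). Srgn and Cst7 are highest in YS lines, where Lyz1, Lyz2 and S100a8 are lowest, and S100a4, S100a10 and Lyzl4 are highest in BM lines.

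Other genes of the members' families were followed as lists. Of 14 other S100 genes, 8 were tested, and 5 were lower in YS than in BM lines with 0 higher, a median change of -1.09. Of all tested genes, 5.22% were called lower there, and their median change was 0.11. S100a4 was at 1540 to 3144 TPM in YS, 2287 to 2573 TPM in FL and 8302 to 10260 TPM across BM lines, a difference from BM lines of -1.98 in YS (SE 0.26, limma adjusted p = 0.00218) and of -1.96 in FL lines (adjusted p = 0.00173). S100a10, the annexin A2 partner, differed by -1.57 in YS lines (0.00645) and S100a11 by -1.24 in YS (0.0313) and -1.33 in FL lines (0.0297), and both S100a11 calls were lost without BM line 3 (adjusted p = 0.110 and 0.114), the first also without YS line 1 (-0.93). S100a3, at most 1.49 TPM, differed by -1.17 in YS lines (0.0203). S100b was the one S100 gene besides S100a8 called higher in FL than in BM lines, by 1.35 (0.0195), at 1.14 to 3.82 TPM against at most 0.37 TPM. S100a3 passed the filter on low values only through the BM lines and S100b only through the FL lines, where each is high. Their adjusted p-values are therefore no independent support. The 6 genes for TLR4, RAGE, CD36, basigin, embigin and CD68, listed as receptors or partners of S100A8 and S100A9, were all tested and 0 were called in any comparison. Basigin RNA was between 314 and 510 TPM in all lines, and CD36 RNA was 12.1 TPM for YS line 1 and at least 359 TPM in the other lines.

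Of 17 other Ly6 genes in the table, 10 were listed at 0 in all lines and 4 were tested. Compared with BM lines, 3 were called higher in YS and 1 in FL lines. Ly6a, which encodes Sca-1, was at 587, 2031 and 3877 TPM in YS, 1292, 189 and 988 TPM in FL and 88.6, 138 and 9.23 TPM across BM lines, with a difference of 5.05 between YS and BM (SE 1.13, limma adjusted p = 0.014) and of 3.63 between FL and BM lines (adjusted p = 0.0543), the latter lost without FL line 1 (3.11, adjusted p = 0.152), FL line 3 (3.30, 0.143) or BM line 3 (2.48, 0.159). Ly6e was higher by 2.00 in YS lines (0.0279), a call lost without BM line 3 (1.66, adjusted p = 0.104), and Ly6i by 1.77 (0.00809) at levels of 1.92 to 4.34 TPM. Outside the YS lines only FL line 1 reached 1 TPM for Ly6i (1.61 TPM). It passed the filter on low values only through the YS lines, where it is high, so its adjusted p-value is no independent support. Of 6 lysozyme-like genes, Lyzl4, otherwise known from the testis, was the one tested. It was at 0.30, 2.08 and 1.12 TPM in YS, 2.93, 5.73 and 4.01 TPM in FL and 19.9, 17.3 and 17.3 TPM across BM lines, differing from BM lines by -3.23 in YS (adjusted p = 0.00093) and -1.91 in FL lines (adjusted p = 0.00484), and YS lines from FL lines by -1.32 (adjusted p = 0.0564), a call lost without YS line 1, where it fell under 2-fold, and without FL line 2 or 3 or BM line 1 or 3 (adjusted p = 0.101 to 0.163). Unlike Lyz1 and Lyz2, Lyzl4 was highest in BM lines.

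Among 12 transcription factors of the granulocyte and monocyte lineages, 10 were tested. Compared with BM lines, 3 rose and 1 fell in YS lines, and 3 rose in FL lines. Cebpe, required for late granule genes, was at 25.1, 8.35 and 1.48 TPM across YS lines and at most 1.33 TPM in the others, higher by 2.98 than in BM lines (SE 0.71, limma adjusted p = 0.0172). Outside the YS lines only FL line 2 reached 1 TPM for Cebpe. It passed the filter on low values only through the YS lines, where it is high, so its adjusted p-values are no independent support. Irf8, which directs monocyte fate, was higher by 1.54 in YS (0.00482) and 1.11 in FL lines (0.0177), and Cebpd by 1.16 (0.00358) and 1.11 (0.00385), where without YS line 1 the first fell under 2-fold (0.96). Cebpa was higher by 1.51 in FL lines (0.0599), a call lost without FL line 2 or 3 or any BM line (adjusted p = 0.127 to 0.162), and Klf4 differed by -1.14 in YS lines (0.0865), a call lost without YS line 1 (-0.52) or any one FL or BM line (adjusted p = 0.108 to 0.202). Spi1, which encodes PU.1, stayed between 364 and 456 TPM, and Gfi1 and Myb were at most 0.14 TPM. Between YS and FL lines, Cebpe was called higher in YS lines and Klf2 and Klf4 lower, with adjusted p from 0.0827 to 0.0954, and all 3 calls were lost without any one FL or BM line (adjusted p = 0.108 to 0.231), those of Cebpe and Klf4 also without YS line 1, and that of Cebpe without YS line 2.

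Other cell types were looked for by their markers. Of 6 endothelial markers, 4 were tested. Compared with BM lines, 2 were called higher in YS lines, Kdr and Egfl7, and 2 in FL lines, Kdr and Cdh5. Kdr, a VEGF receptor, was at 0.29, 16.1 and 54.4 TPM across YS lines. It was at 17.4 to 50.4 TPM across FL lines and at most 0.86 TPM across BM lines. Egfl7 was at 8.18, 2.03 and 19.9 TPM across YS lines and at most 0.59 TPM in the others, so it passed the filter only through the YS lines. The Kdr calls were lost without BM line 1 or 3 and, for YS lines, also without YS line 2 or 3, FL line 1 or BM line 2 (adjusted p = 0.102 to 0.192). The whole list summed to 24.0 to 75.6 TPM in YS, 19.4 to 51.7 TPM in FL and 0.17 to 3.02 TPM across BM lines. Cdh5, VE-cadherin, was at most 1.38 TPM and was higher by 1.10 in FL than in BM lines (limma adjusted p = 0.0366). Outside the FL lines only YS line 3 reached 1 TPM for Cdh5 (1.36 TPM). Cdh5 passed the filter only through the FL lines, and Egfl7 only through the YS lines, where each is high. Their adjusted p-values are no independent support. The Cdh5 call was lost without BM line 1 (adjusted p = 0.129) or BM line 3 (0.134). Neutrophil markers summed to 1.88 to 19.0 TPM in YS, 0.38 to 1.29 TPM in FL and 0.05 to 0.10 TPM across BM lines, with 2 of 9 listed at 0 in all lines. Both sums and the Ly6c pair were higher in each YS line than in any BM line. Within the YS lines the neutrophil sum was lowest in line 3, at 1.88 TPM. In YS line 1 it was mostly Csf3r, at 18.5 of 19.0 TPM. Of the erythroid and megakaryocyte list, Pf4 was called higher in YS (2.63, limma adjusted p = 0.0768) and FL (3.43, 0.0409) than in BM lines, calls lost without BM line 1 or 3 and also without YS line 2 or 3 or FL line 1, respectively. Of 8 macrophage markers, 7 were tested, and beside Fcgr1, Mertk was called, higher by 1.99 in FL than in BM lines (0.00586) and lower in YS than in FL lines, the latter lost without FL line 2 (-1.54, adjusted p = 0.103). Cd34 of the mast cell and progenitor list and Zbtb46 of the dendritic cell list were called higher in YS than in BM lines, the first lost without YS line 1 or 3 or any BM line (adjusted p = 0.109 to 0.159), and the other markers of these last 2 lists stayed under 1 TPM. The part of other cells in the members' values was not tested.

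The genes whose log2(TPM + 1) followed a member most closely over the 9 libraries were sought among all tested genes. S100a8 was followed by Vapb (Pearson r = 0.983), Akr1c13 (0.981) and Ranbp9 (0.960). Lyz2 was followed by Atp6v1e1, Naip2 and Ypel5 (0.972 each) and Lyz1 by Naip2 (0.970), Ypel5 (0.967) and 5730405O15Rik (0.959). These values describe 9 libraries in 3 groups, so that a difference between groups alone gives a high r. Vapb, for example, was at 28.8 to 34.0 TPM in YS, 51.8 to 63.1 TPM in FL and 40.4 to 43.3 TPM across BM lines, the same order as S100a8 but over a much narrower range.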

How the data were processed

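RNA was measured in 9 libraries, 1 per line and 3 lines per group, prepared with a stranded poly(A) kit and sequenced as single reads of 75 nt. The deposited values are TPM for 24411 gene symbols, given to 2 decimals. The processing notes of the submitters name Trim Galore 0.6.6, STAR 2.7.9a and RSEM 1.3.3, and the genome build and annotation are not given in the sources used here. TPM keeps no depth.

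Lines were grouped by the origin in the labels. Genes that reached 1 TPM in 3 or more libraries were tested on log2(TPM + 1) with limma 3.58.1 in R 4.3.3, over 9 libraries with an intensity trend and Benjamini-Hochberg adjustment within each comparison, and called at an adjusted p under 0.1 and over 2-fold. The study's own test needs counts, so limma took its place. The script was tested on simulated data. Single values were compared by exact two-sided permutation tests (scipy 1.17.1). Alternatives were 2 other pseudocounts, filters, normalizations, thresholds and fits, and each line left out.

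All 8 members were described, of each list the called genes (up to 4 per direction) or its highest members, and for each tested member the 3 genes with the highest Pearson r. Members and the 17 lists were chosen with earlier results of these data known. Sequences came from GENCODE M21 and RefSeq, and no coordinates were taken from the deposited table.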

Additional observations from a re-analysis of the deposited data

How the results depend on the processing

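Fold changes of S100a8, Lyz1 and Lyz2 kept their direction in 183 of 183 recomputations over 21 alternatives, 168 kept their side of the thresholds, and 15 lost a call. Other thresholds, filters and fits, or a line left out of the third group, cannot alter a fold change, so direction was fixed in those. The 168 include Lyz1 and Lyz2 between FL and BM lines, which were not called in any setting. Between YS and BM lines, 3 members were called, and 1 to 3 with 1 line left out, the 1 being Lyz1 without BM line 1. The lysozyme sum there ranged from -1.91 to -1.11 with 1 line left out, and at the same -1.60 it was no longer called without the filter on low values (adjusted p = 0.122) or at an adjusted p under 0.05 (0.0532). S100a8 was not called with a pseudocount of 4 (-0.73, adjusted p = 0.0814). Between FL and BM lines 0 members instead of 1 were called with a pseudocount of 0.1, where S100a8 had 2.19 and an adjusted p of 0.151. Between YS and FL lines 1 member instead of 3 was called when only those 2 groups were fitted (lysozyme sum -2.38, adjusted p = 0.159), and 1 to 3 with 1 line left out (lysozyme sum -2.90 to -1.88). In that comparison all genes called fell from 446 to 76 in the fit of 2 groups, 280 with a pseudocount of 4, 234 at an adjusted p under 0.05, and 175, 178, 285 and 294 without FL line 2, FL line 3, BM line 1 and BM line 3. With no fold threshold, 4455, 3247 and 1500 genes were called in the 3 comparisons. List counts are small and moved as well: over all alternatives, calls between YS and BM lines ranged from 1 to 2 for azurophil, 3 to 7 for non-classical monocyte, 2 to 3 for Ly6 and 3 to 7 for S100 genes. The labels number the lines 1 to 3 in each group. Same-numbered lines deviated together with correlations from -0.12 to 0.09, and lines of unlike number with -0.14 to 0.12. No pairing by number was seen, but so few lines cannot exclude it. A fit with the replicate block called 3, 1 and 3 members and 1503, 1191 and 409 genes. The Ly6c sum did not pass the filter on low values and has no limma value. The depth behind the TPM is unknown, so values near 0 cannot be told from 0.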
